A study of Mus musculus with 64 samples.

Results

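Expression of 8 genes that mark oligodendrocyte precursor cells was followed across the hippocampus of 8 inbred mouse strains. The genes were Pdgfra, Cspg4, Gpr17, Ptprz1, Olig1, Olig2, Sox10 and Lhfpl3. They were taken by symbol from the deposited table of gene counts, where all 8 were found among 32227 gene identifiers, and all 8 passed the filter on low counts that left 17382 genes for testing.

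Bulk RNA sequencing covered 64 hippocampus samples, with 4 females and 4 males of each strain. CAST/EiJ, PWK/PhJ and WSB/EiJ derive from wild-caught mice, and A/J, C57BL/6J, 129S1/SvImJ, NOD/ShiLtJ and NZO/HlLtJ are laboratory strains (all names are written with a slash here). No treatment, engineered allele or age is named in the labels. The labels do not say that each sample is a separate animal, so p-values measure the spread between these samples. Total counts ran from 16607602 to 27759221 per library with a median of 22176356.5, and 3 libraries (129S1/SvImJ female 1, A/J male 2 and A/J male 4) correlated less with their own group than the rest. In every library 8 neuron markers summed to at least 5990 CPM (counts scaled to library size with TMM factors) and 10 astrocyte markers to at least 3640. Markers of choroid plexus, which lies close to the hippocampus, summed to between 18.0 and 4880 CPM in single libraries.

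Oligodendrocyte precursor cells are glia that persist in the adult brain, divide, and give rise to the oligodendrocytes that wrap axons in myelin. Platelet-derived growth factor acts on them through its alpha receptor, the product of Pdgfra, and Cspg4 encodes their surface proteoglycan NG2. The transcription factors of Olig1, Olig2 and Sox10 are present in precursors and remain in mature oligodendrocytes, whereas Gpr17 is transient in precursors that are committed to differentiate. Fibroblasts also express Pdgfra, pericytes express Cspg4, and astrocytes express Ptprz1. In bulk RNA, fewer cells of a type and less RNA per cell cannot be told apart.

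Upstream sequence was read from RefSeq (build GRCm38.p6) for 5 of the 8 genes, and the 3 stretches of most bases ahead of any annotated exon are shown, because Olig2 belonged to the genes that varied with Sox10 and Cspg4 and Lhfpl3 to those that varied with Ptprz1 between libraries. Letters run 5′ to 3′ on the forward strand, for Cspg4 at chr9:56864854-56865032, for Olig2 at chr16:91225300-91225456 and for Lhfpl3 at chr5:22745804-22746053. Capitals mark matches on either strand to the E-box CANNTG, a motif of basic helix-loop-helix factors such as the OLIG proteins, or to the SOX core ACAAT.
Cspg4: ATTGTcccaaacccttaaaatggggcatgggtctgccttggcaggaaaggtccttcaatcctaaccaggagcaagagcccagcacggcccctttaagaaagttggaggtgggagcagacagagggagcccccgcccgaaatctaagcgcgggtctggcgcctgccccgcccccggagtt
Olig2: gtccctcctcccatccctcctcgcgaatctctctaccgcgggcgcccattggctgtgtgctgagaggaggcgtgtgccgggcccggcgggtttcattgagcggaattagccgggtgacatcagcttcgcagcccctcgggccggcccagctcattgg
Lhfpl3: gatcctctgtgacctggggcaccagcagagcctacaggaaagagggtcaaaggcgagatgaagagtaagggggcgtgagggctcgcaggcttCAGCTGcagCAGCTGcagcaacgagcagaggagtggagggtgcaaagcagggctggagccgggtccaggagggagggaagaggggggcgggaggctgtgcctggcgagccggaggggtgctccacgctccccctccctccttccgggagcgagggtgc

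Lhfpl3 held 2 E-boxes of the same letters, and Cspg4 held 1 SOX core at the first base shown. The printed stretch of Olig2, 157 bases, held neither motif. In the full 250 bases read for Olig2, 1 SOX core began at base 184 and no E-box was found. Base 184 lies past the printed stretch, which ends where annotated exon begins. In the 250 bases read per promoter, 66.2% of the 32851 promoters held the E-box and 27.7% the SOX core, so both motifs are common. For some genes these bases reach into annotated exon. These matches describe letters and say nothing of binding.

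Per kilobase of annotated exon, Olig1 had the highest level, at 49.4 ± 6.90 CPM per kilobase (SD, n = 64). Ptprz1 followed at 17.1 ± 2.09 and Sox10 at 12.6 ± 2.11. Olig2 (9.96 ± 1.15) and Gpr17 (9.95 ± 1.85) were alike on this scale. Pdgfra was at 6.29 ± 0.822, Lhfpl3 at 5.74 ± 0.814 and Cspg4 at 1.52 ± 0.226. The smallest count of any of the 8 in a library was 242, for Cspg4.

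Strain differences in these genes were small. In the F test over the 8 strains (quasi-likelihood F test of edgeR, adjusted by the Benjamini-Hochberg method, as are all adjusted p-values here), 7 of the 8 genes passed an adjusted p of 0.05, beside 89.2% of all genes tested. Olig2 did not (adjusted p = 0.0817). The range of the 8 strain means on the log2 scale was 0.53 for Sox10, 0.50 for Gpr17, 0.47 for Pdgfra, 0.45 for Cspg4 and 0.41 for Olig1. It was 0.30 for Lhfpl3, 0.24 for Ptprz1 and 0.23 for Olig2. None of the 8 reached a range of 1 (0.532 was the range of Sox10 with DESeq2). By edgeR 27.6% of all genes both passed the F test and reached that range. The median range was 0.426 for the 8 genes and 0.548 for all genes. Strain held a median of 37.8% of the variance of log2 CPM in the 8 genes and 51.1% over all genes.

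**Figure D1:**
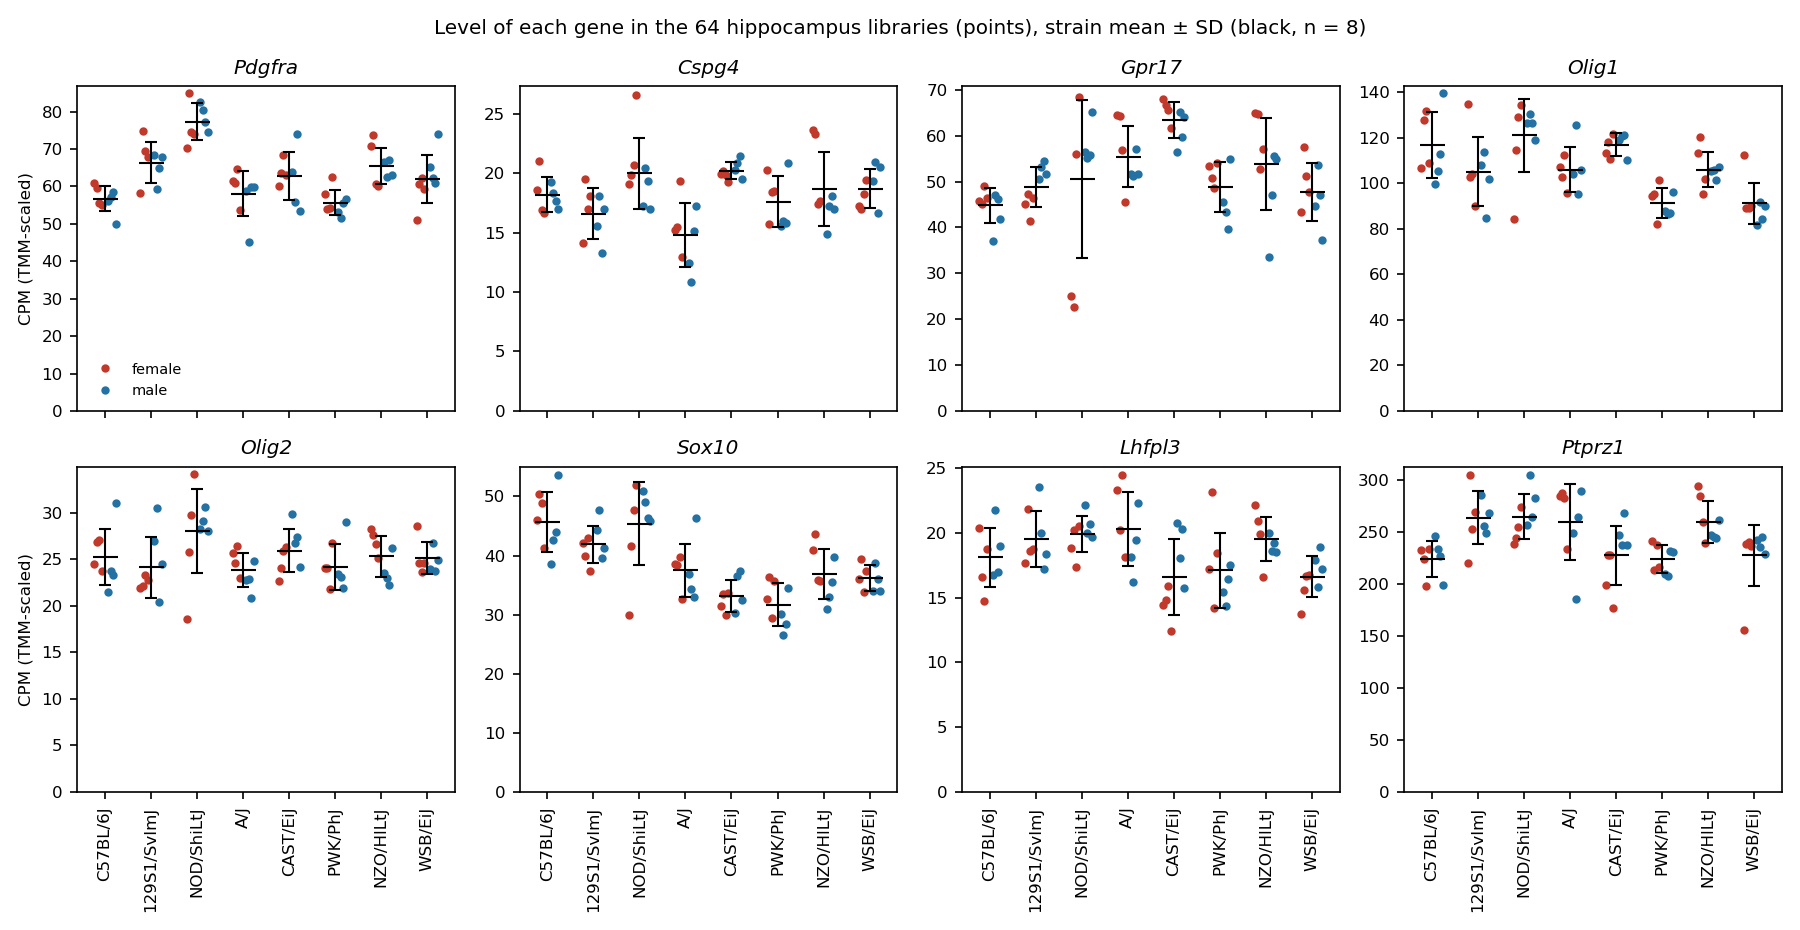
Level of each gene (CPM on a linear axis from 0) in the 64 libraries, with females in red, males in blue, and the strain mean ± SD in black (n = 8). NOD/ShiLtJ stands highest in Pdgfra at 77.3 CPM, CAST/EiJ highest in Gpr17 at 63.4 CPM, and a pair of NOD/ShiLtJ females lowest in Gpr17 at 25.1 and 22.6 CPM.

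Testing every strain against the average of the 7 others gave 64 pairs of gene and strain. Of these, 13 were higher, 11 lower and 40 did not pass. No pair had all 8 libraries outside all 56 others, and the largest difference was 0.35 on the log2 scale. The 8 comparisons share libraries and are not independent.

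NOD/ShiLtJ was the strain with the most genes higher. In it 6 of the 8 rose (21.4% of all genes were higher in this strain and 18.2% lower), with a median log2 difference of 0.175 over the 8 genes and 0.007 over all genes. The 6 were Pdgfra, Cspg4, Olig1, Olig2, Sox10 and Ptprz1. This count was 3 when NOD/ShiLtJ female 4 was left out and 2 among females alone. PWK/PhJ had 4 of the 8 lower (28.8% of all genes were lower and 28.9% higher), namely Pdgfra, Olig1, Sox10 and Ptprz1, with a median of -0.13 beside -0.003 over all genes.

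CAST/EiJ went both ways. Cspg4, Gpr17 and Olig1 made 3 genes higher (28.3% of all genes were higher), and Sox10 and Lhfpl3 made 2 lower (28.5% were lower). Without the CAST/EiJ females 2 of these 5 calls were left, and Sox10 (-0.186, adjusted p = 0.0593) and Olig1 (0.175, 0.0562) missed the threshold. C57BL/6J had Olig1 and Sox10 higher, which is 2 of 8 (20.4% of all genes higher), and 1 lower, Pdgfra (17.6% lower). A/J had 1 higher, Lhfpl3 (19.1% higher), and 2 lower, Pdgfra and Cspg4 (14.7% lower). WSB/EiJ had 2 lower, Olig1 and Lhfpl3 (20.0% lower and 22.3% higher).

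In 129S1/SvImJ a single gene, Sox10, was 1 higher of 8 (17.6% of all genes higher). NZO/HlLtJ had 0 of 8 called by edgeR and 0 by DESeq2, with 21.8% of all genes higher and 16.2% lower there. Without adjustment 1 of the 8, Ptprz1, was under 0.05 in edgeR. The count in C57BL/6J was 5 without A/J female 4 or without NOD/ShiLtJ female 1, and that in WSB/EiJ was 1 without WSB/EiJ female 1 or male 2. The count in 129S1/SvImJ was 0 without its female 3, male 1 or male 2, and 2 in 25 other fits with a library left out. In 1 of those 25, without its female 1, Sox10 was not among the genes called.

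**Figure D2:**
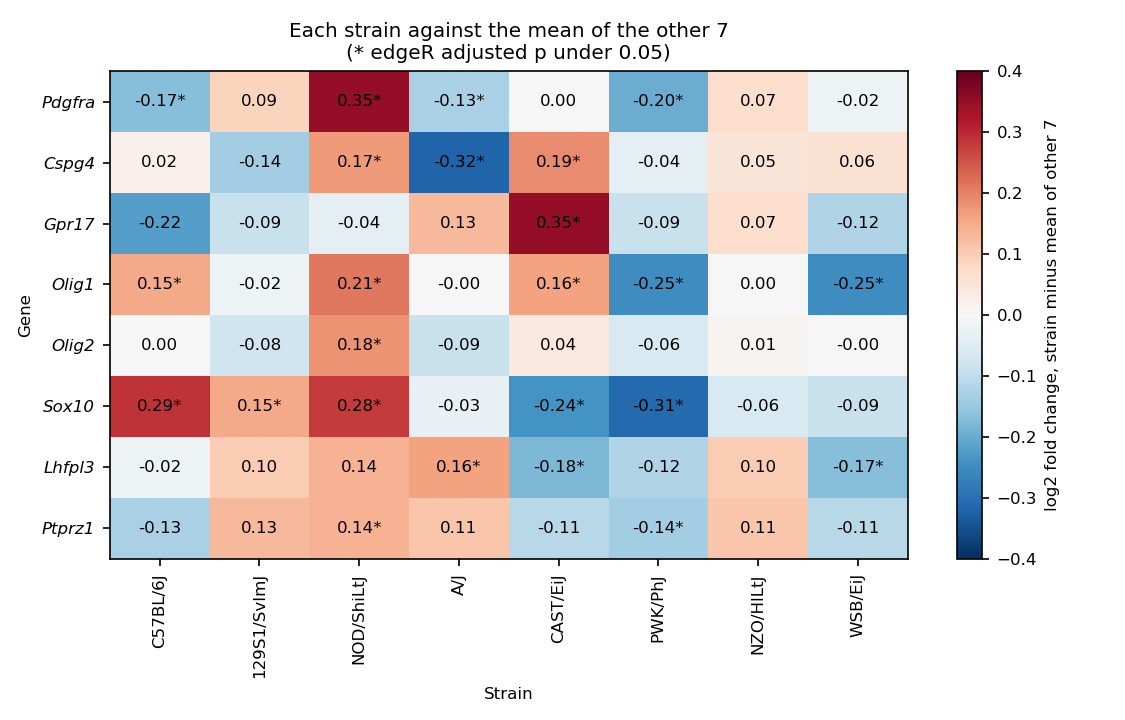
Log2 fold change of each gene (rows) in each strain (columns) against the mean of the other 7, with an asterisk where edgeR's adjusted p was under 0.05. Values run from -0.32 for Cspg4 in A/J to 0.35 for Pdgfra in NOD/ShiLtJ and for Gpr17 in CAST/EiJ, and 24 of the 64 cells carry an asterisk.

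Pdgfra, the growth factor receptor that defines the precursors, was highest in NOD/ShiLtJ. Its lowest, median and highest libraries there were 70.4, 75.9 and 84.9 CPM. They were 58.3, 67.8 and 74.9 in 129S1/SvImJ, 60.3, 64.9 and 73.6 in NZO/HlLtJ, 53.5, 63.3 and 73.9 in CAST/EiJ, and 51.1, 61.5 and 74.1 in WSB/EiJ. The lowest levels were in A/J (45.1, 60.0 and 64.7), C57BL/6J (50.1, 56.7 and 60.8) and PWK/PhJ (51.6, 54.9 and 62.5). All 8 NOD/ShiLtJ libraries lay above every C57BL/6J, A/J and PWK/PhJ library, and overlapped the upper libraries of the other 4 strains.

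The mean in NOD/ShiLtJ, 77.3 ± 4.90 CPM (SD, n = 8), was 1.39-fold that in PWK/PhJ, 55.7 ± 3.41. Against the other strains, NOD/ShiLtJ was higher by 0.35 ± 0.0436 (log2, SE, adjusted p = 2.8e-09), the smallest p of the 64 pairs. PWK/PhJ was lower (-0.20, adjusted p = 0.000249), as were C57BL/6J (-0.17, 0.00269) and A/J (-0.13, 0.0242). In the order of strain means, NOD/ShiLtJ exceeded 129S1/SvImJ (66.4) by more than the pooled SD, and no other neighbours differed by that much. The call in A/J was lost without A/J male 2 (-0.083, adjusted p = 0.164) or without A/J female 4 (-0.103, 0.0922), and among females alone (-0.079, 0.417).

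Fibroblasts also express Pdgfra, and their markers varied among the strains. The 8 meningeal fibroblast markers, all with counts in every library, had the highest mean sum in NZO/HlLtJ (302 ± 90.4 CPM, 195 to 428), where 7 of the 8 were higher than in the other strains. NOD/ShiLtJ, highest in Pdgfra, was next (222 ± 81.1, 123 to 356), with 1 of the 8 higher. Pdgfra in NZO/HlLtJ was 65.6 ± 4.81 CPM and did not pass the test (0.07, adjusted p = 0.200). PWK/PhJ was lowest both in Pdgfra and in these markers (mean 140 CPM, 87.8 to 203), of which 4 were lower and 1 higher. Their part in the Pdgfra values was not tested.

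Other genes of the platelet-derived growth factor family did not share an order of strains. Of 5 genes for ligands of the family and the beta receptor, 4 passed the F test. Pdgfa, the ligand that acts on precursors, ranged from 30.8 ± 2.89 CPM in 129S1/SvImJ to 23.7 ± 1.81 in PWK/PhJ (log2 range 0.38, adjusted p = 9.84e-05). PWK/PhJ was thus the lowest strain for both Pdgfa and its receptor. Pdgfd ranged from 7.86 ± 0.886 in PWK/PhJ to 3.30 ± 1.06 in A/J (1.25), and the pericyte receptor Pdgfrb from 29.4 ± 1.98 in NZO/HlLtJ to 20.3 ± 2.45 in 129S1/SvImJ (0.54). In NOD/ShiLtJ 2 of the 5 were higher (21.4% of all genes), and in A/J 3 were lower (14.7% of all genes).

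Cspg4, which encodes the NG2 proteoglycan, differed most at its low end. A/J libraries were at 10.8, 15.2 and 19.4 CPM (lowest, median, highest) and 129S1/SvImJ libraries at 13.3, 17.0 and 19.5. The CAST/EiJ libraries lay close together at 19.3, 20.1 and 21.5. NOD/ShiLtJ spread from 17.0 to 26.6 with a median of 19.6, and the other 4 strains had medians of 17.2 to 18.8. A/J was lower than the other strains by 0.32 ± 0.0657 on the log2 scale (adjusted p = 8.05e-05), with 1 of its 8 libraries above the median of the others.

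CAST/EiJ was higher in Cspg4 (0.19, adjusted p = 0.00765) and so was NOD/ShiLtJ (0.17, 0.0219). The NOD/ShiLtJ call was lost without its female 4 (0.115, adjusted p = 0.154), male 2 (0.0784) or male 3 (0.0510), and among males alone (0.098, 0.418). The CAST/EiJ call was lost among females alone (0.105, 0.364). No strain differed from its neighbour in the order by more than the pooled SD. The 8 pericyte markers, all with counts in every library, summed to 138 to 158 CPM in CAST/EiJ, the lowest strain for them, while Cspg4 was highest there at 20.2 ± 0.715. In A/J they summed to 141 to 194 CPM, and 3 of the 8 were lower.

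Gpr17, a G protein-coupled receptor of precursors about to differentiate, was highest in CAST/EiJ. The lowest, median and highest CAST/EiJ libraries were at 56.4, 64.6 and 68.0 CPM. A/J was at 45.7, 54.4 and 64.6, NZO/HlLtJ at 33.6, 55.2 and 64.8, and NOD/ShiLtJ at 22.6, 55.9 and 68.5. The values were 41.4, 49.0 and 54.4 in 129S1/SvImJ, 39.7, 49.7 and 54.8 in PWK/PhJ, 37.3, 47.4 and 57.5 in WSB/EiJ, and 37.0, 46.0 and 49.1 in C57BL/6J. Every CAST/EiJ library lay above all of those of C57BL/6J, 129S1/SvImJ and PWK/PhJ.

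CAST/EiJ was higher in Gpr17 by 0.35 ± 0.0881 (log2, SE, adjusted p = 0.000609), with all 8 libraries above the median of the other strains. It also exceeded A/J, the next strain, by more than the pooled SD (63.4 ± 3.89 against 55.4 ± 6.62). C57BL/6J, the lowest strain at 44.8 ± 3.76, did not pass (-0.22, adjusted p = 0.0552). NOD/ShiLtJ had the widest spread of any strain, 50.6 ± 17.2. Its females 1 and 2 were at 25.1 and 22.6 CPM, the lowest of all 64 libraries, and its other 6 libraries at 55.1 to 68.5.

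Over the 8 strains Gpr17 had an adjusted p of 0.00525, and it missed the threshold among females alone (0.0828) and without the CAST/EiJ females (0.0816). The exons of Gpr17 share 188 bases, 3.6% of their length, with Lims2 on the opposite strand. Use of strand in the counting was not given, so reads from those bases cannot be assigned. Lims2, which is itself expressed as oligodendrocytes form, was highest in A/J (13.0 ± 0.890 CPM) and lowest in CAST/EiJ (6.92 ± 1.12), where Gpr17 was highest.

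Ptprz1, a receptor phosphatase with pleiotrophin among its ligands, formed an upper and a lower set of strains. Strain means were 265 ± 21.8 CPM in NOD/ShiLtJ, 264 ± 25.6 in 129S1/SvImJ, 260 ± 20.3 in NZO/HlLtJ and 260 ± 36.3 in A/J. They were 228 ± 29.4 in WSB/EiJ, 228 ± 28.3 in CAST/EiJ, 224 ± 17.2 in C57BL/6J and 224 ± 13.4 in PWK/PhJ. The gap between the sets, 31.8 CPM, was under the pooled SD of 33.0. NOD/ShiLtJ was higher by 0.14 (adjusted p = 0.0297) and PWK/PhJ lower by 0.14 (log2 of -0.14, 0.0290).

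Both calls of Ptprz1 depended on single libraries. That in NOD/ShiLtJ was lost without its female 3, female 4, male 2 or male 4 (adjusted p of 0.0502 to 0.103), and that in PWK/PhJ without its female 2, female 4, male 1 or male 2 (0.0519 to 0.0718). Among females alone they were 0.085 (0.487) and -0.092 (0.409). The 10 astrocyte markers summed to 5690 to 6100 CPM in PWK/PhJ, above every C57BL/6J, 129S1/SvImJ, NOD/ShiLtJ, A/J and WSB/EiJ library, while Ptprz1 was lowest in PWK/PhJ. Of 6 ligands and partners of the phosphatase, 5 passed the F test. The matrix protein gene Tnr ranged from 300 ± 20.8 CPM in NOD/ShiLtJ to 191 ± 37.4 in WSB/EiJ (0.66), Mdk, for the ligand midkine, from 12.2 ± 1.49 in NZO/HlLtJ to 7.95 ± 1.67 in 129S1/SvImJ (0.61), and the adhesion gene Nrcam from 414 ± 37.2 in PWK/PhJ to 307 ± 39.8 in A/J (0.43).

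Sox10, a transcription factor required for oligodendrocytes to mature, had the widest range of the 8. Its lowest, median and highest libraries were at 38.6, 45.0 and 53.6 CPM in C57BL/6J, 30.0, 47.0 and 51.9 in NOD/ShiLtJ, and 37.5, 41.7 and 47.7 in 129S1/SvImJ. They were at 32.6, 37.6 and 46.4 in A/J, 30.9, 35.8 and 43.6 in NZO/HlLtJ, and 33.8, 36.1 and 39.4 in WSB/EiJ. The lowest were CAST/EiJ (29.9, 33.0 and 37.4) and PWK/PhJ (26.5, 31.4 and 36.3). All 8 C57BL/6J libraries lay above all CAST/EiJ and PWK/PhJ libraries, and all 8 of 129S1/SvImJ above those of CAST/EiJ and PWK/PhJ as well.

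C57BL/6J was 1.44-fold PWK/PhJ in Sox10 (45.7 ± 5.05 against 31.7 ± 3.61 CPM). Against the other strains C57BL/6J was higher by 0.29 ± 0.0561 (log2, SE, adjusted p = 2.43e-05) and NOD/ShiLtJ by 0.28 ± 0.0559 (3.93e-05). PWK/PhJ was lower (-0.31, 1.11e-05), as was CAST/EiJ (-0.24, 0.000545). The neighbours 129S1/SvImJ and A/J, and WSB/EiJ and CAST/EiJ, differed by more than their pooled SD. The higher level in 129S1/SvImJ (0.15, adjusted p = 0.0329) was lost without its female 1, female 3, male 1 or male 2 (0.0658 to 0.114), and among females alone (0.093, 0.441). That in NOD/ShiLtJ was 0.184 (0.0887) among females alone.

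Olig1, a basic helix-loop-helix factor needed for myelin repair, was lowest in WSB/EiJ and PWK/PhJ. The lowest, median and highest libraries were 81.8, 89.5 and 112 CPM in WSB/EiJ and 82.2, 91.2 and 101 in PWK/PhJ. They were 84.1, 127 and 134 in NOD/ShiLtJ, 110, 118 and 122 in CAST/EiJ, and 99.8, 111 and 140 in C57BL/6J. Libraries ran from 84.8 to 135 in 129S1/SvImJ, 95.3 to 126 in A/J and 95.4 to 121 in NZO/HlLtJ. Every PWK/PhJ library lay below every CAST/EiJ library, and all other pairs of strains overlapped.

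WSB/EiJ was lower in Olig1 by 0.25 ± 0.0578 (log2 of -0.25, SE, adjusted p = 0.000267) and PWK/PhJ by as much (-0.25, 0.000217). NOD/ShiLtJ (0.21, adjusted p = 0.00185), CAST/EiJ (0.16, 0.0132) and C57BL/6J (0.15, 0.0233) were higher. The C57BL/6J call was lost without its female 2, female 3 or male 4 (0.0695 to 0.177). Among females alone the difference in NOD/ShiLtJ was 0.13 (0.289), and the F test for Olig1 gave an adjusted p of 0.0533.

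Olig2, the factor that specifies the lineage and a neighbour of Olig1 on chromosome 16, had the smallest range of strain means with all libraries kept. Strain means ran from 23.8 ± 1.83 CPM in A/J to 28.0 ± 4.53 in NOD/ShiLtJ, a 1.17-fold difference, and no neighbours in the order differed by more than the pooled SD. NOD/ShiLtJ was higher (0.18, adjusted p = 0.00923), with 7 of its 8 libraries above the median of the others, and this was lost without its female 4 (0.111, 0.116). NOD/ShiLtJ female 1, at 18.5 CPM, was the lowest of all 64 libraries, and female 4, at 34.1, the highest. Without female 1 the F test over strains passed (0.00165), as it did without 129S1/SvImJ male 2 (0.0344), C57BL/6J male 4 (0.0399) or PWK/PhJ male 4 (0.0392). The log2 range of Olig2 was then 0.305 without female 1, so its place as the smallest depended on that library. With any single library left out, the range of Ptprz1 was 0.232 to 0.273.

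The log2 ratio of Olig1 to Olig2 within a library was 1.86 ± 0.0664 (SD, n = 8) in WSB/EiJ and 1.92 ± 0.0841 in PWK/PhJ. It had means of 2.07 to 2.21 in the other 6 strains. Ratios in WSB/EiJ (1.77 to 1.98) lay below all those in C57BL/6J (2.12 to 2.29), A/J (2.06 to 2.46) and CAST/EiJ (1.99 to 2.32). They met those of NOD/ShiLtJ at 1.98, and overlapped those of 129S1/SvImJ, PWK/PhJ and NZO/HlLtJ. These ratios were described and not tested.

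Lhfpl3, a tetraspan membrane protein gene enriched in precursors, had small differences that depended on few libraries. Strain means ran from 20.3 ± 2.86 CPM in A/J to 16.6 ± 1.58 in WSB/EiJ and 16.6 ± 2.92 in CAST/EiJ, which is 1.22-fold, and no neighbours differed by more than the pooled SD. A/J was higher (0.16, adjusted p = 0.0296), and CAST/EiJ (-0.18, 0.0100) and WSB/EiJ (-0.17, 0.0218) lower. The A/J call was lost without its female 1, female 3, male 3 or male 4 (0.0563 to 0.146). It was also lost without the CAST/EiJ females (0.135, adjusted p = 0.0875) and without the 3 libraries that correlated less with their group (0.153, 0.0995), and among males alone the difference was 0.038 (0.751). The WSB/EiJ call was lost without its female 1 (0.0852) or male 2 (0.0693) and among males alone (-0.107, 0.346), and the CAST/EiJ call without its female 4 (0.0529) or male 4 (0.0527).

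In CAST/EiJ the females and males were apart in Lhfpl3 to a degree. The 4 females were at 12.4, 14.4, 14.8 and 15.9 CPM and the 4 males at 15.7, 18.0, 20.3 and 20.8. The groups overlapped at 1 library. With the CAST/EiJ females left out the difference from the other strains turned to 0.012 (adjusted p = 0.933), and among males alone to 0.017 (0.882). CAST/EiJ females carry title numbers of 639 to 643 and all other samples 311 to 462, so sex and this block of numbers cannot be told apart in CAST/EiJ. The exons of Lhfpl3 share 567 bases, 17.6% of their length, with A930003O13Rik on the opposite strand, a gene at 0.555 CPM on average.

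Sex was compared over all strains. By edgeR 0 of the 8 genes differed between females and males, as did 0.167% of all genes tested, and DESeq2 also called 0. The largest difference was in Cspg4, higher in females by 0.094 ± 0.042 on the log2 scale, the 1 gene under 0.05 before adjustment (adjusted p = 0.874). The other 7 lay between -0.040 (Lhfpl3) and 0.040 (Gpr17). For the interaction of strain and sex 0 of the 8 were called by edgeR, beside 0.046% of all genes, and 0 by DESeq2. Lhfpl3 was the 1 gene under 0.05 there before adjustment (adjusted p = 0.398).

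The 8 genes did not vary as a single block. Over the 64 deviations from the 16 group means, Pearson's r between pairs had a median of 0.34 and ran from -0.32 to 0.77, with 24 of the 28 pairs above 0. Olig1, Olig2 and Sox10 varied together between libraries (Olig1 with Olig2 0.77, Olig2 with Sox10 0.76, Olig1 with Sox10 0.69). A second set held Pdgfra, Cspg4, Ptprz1 and Lhfpl3, led by Pdgfra with Ptprz1 (0.65) and Cspg4 with Ptprz1 (0.59). Many other genes came closer to this second set. Among the 17381 other genes, Ptprz1 ranked 27 in likeness to Pdgfra, 110 to Cspg4 and 168 to Lhfpl3, and Pdgfra ranked 791 to Ptprz1. The best ranks within the first set were 12 for Olig1, 2 for Olig2 and 15 for Sox10. Ptprz1 also gave 0.55 with the mean of the astrocyte markers and 0.51 with that of the neuron markers. The sets were not separate. Cspg4 gave 0.44 with Sox10 and 0.42 with Olig2, above its 0.35 with Lhfpl3, while Pdgfra with Olig2 gave 0.06 and Olig1 with Ptprz1 -0.32. Gpr17 varied with Sox10 (0.56) and not with Pdgfra (-0.01).

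These correlations are descriptions over libraries that share their scaling to depth, and carry no p. With the pair of libraries farthest from the median left out, Olig1 with Olig2 gave 0.78, Olig2 with Sox10 0.66 and Pdgfra with Ptprz1 0.60. Over the 8 strain means the pattern differed. Lhfpl3 with Ptprz1 (0.91) and Cspg4 with Olig2 (0.81) were highest there, and Gpr17 with Sox10 was lowest (-0.58). For Gpr17 and Sox10 the sign of r differed between libraries of a group and strain means. The Gpr17 mean of NOD/ShiLtJ includes its females 1 and 2, at 25.1 and 22.6 CPM beside 55.1 to 68.5 in its other 6 libraries. No strain-mean r was computed without this pair, so the -0.58 may depend on it. The log2 ratio of Sox10 to Gpr17 was 0.02 ± 0.171 in C57BL/6J (-0.17 to 0.36) and -0.94 ± 0.152 in CAST/EiJ (-1.14 to -0.67), with no overlap.

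**Figure D3:**
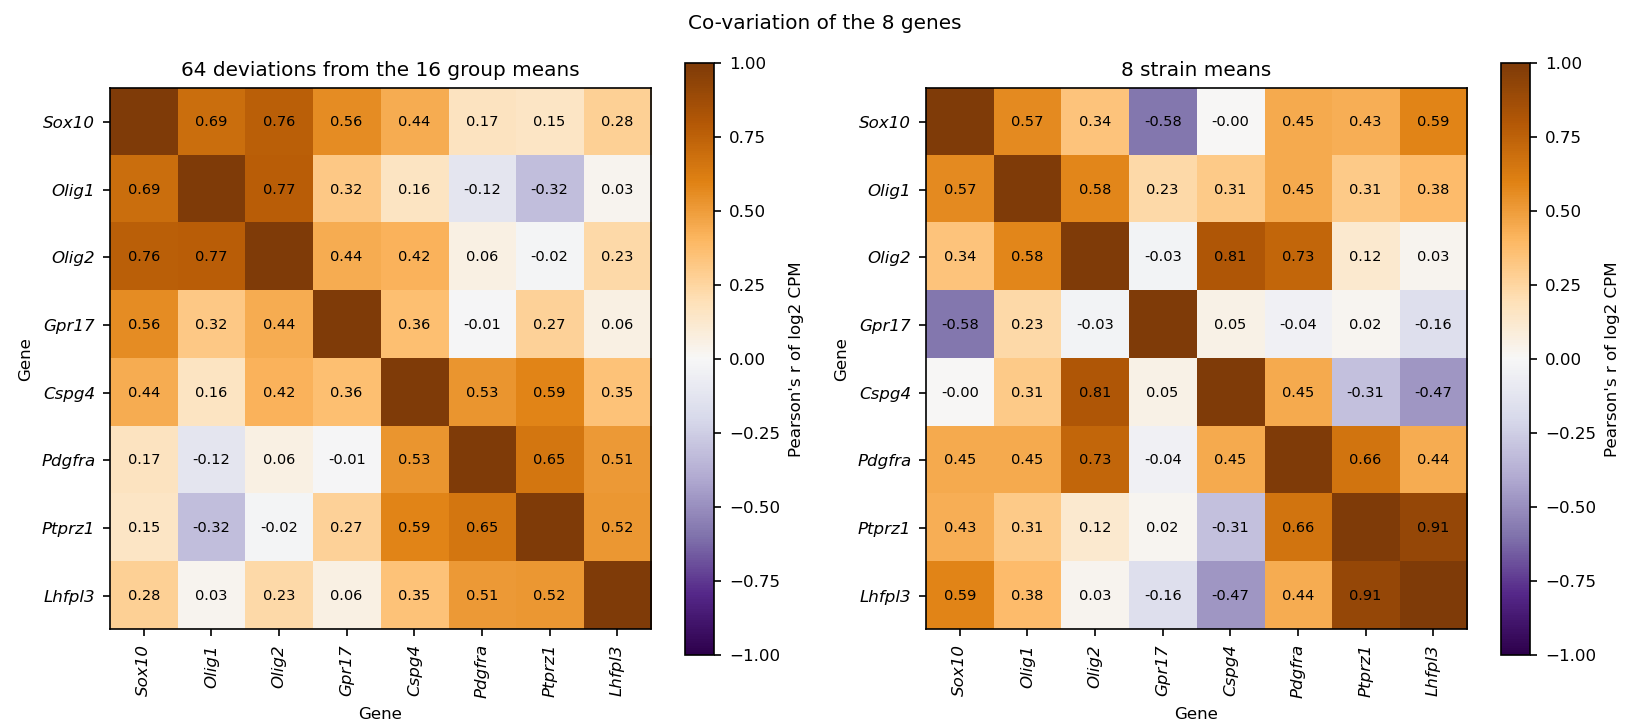
Pearson's r of log2 CPM for each pair of the 8 genes, over the 64 deviations from the group means (left) and over the 8 strain means (right). Sox10, Olig1 and Olig2 form a block on the left with r of 0.69 to 0.77, and Gpr17 with Sox10 goes from 0.56 on the left to -0.58 on the right. The strain means on the right include NOD/ShiLtJ females 1 and 2, the libraries lowest in Gpr17.

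Among all 17382 genes, the patterns most like each of the 8 were found by r of log2 CPM. For Sox10 over all 64 libraries these were Fa2h, which makes the hydroxylated lipids of myelin (0.90), Prr18 (0.86) and Mag, a myelin adhesion protein (0.86). Within groups Sox10 was nearest to Fa2h (0.88), Gna12 (0.85) and Bcas1 (0.83). Olig2 was nearest to Olig1 over all libraries (0.62) and to Fa2h within groups (0.79), followed by Olig1 (0.77). Olig1 was nearest to Ppp1r14a over all libraries (0.81) and to Cmtm5 within groups (0.85).

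The surface genes had other neighbours. Ptprz1 within groups was nearest to Cltc, the clathrin heavy chain (0.91), Slc4a4, a bicarbonate transporter of astrocytes (0.89), and Cntn1, a contactin that binds the phosphatase (0.89). Pdgfra was nearest to Zfp106 over all libraries (0.78) and to Ptprm within groups (0.77). Cspg4 was nearest to Gtf3c1 over all libraries (0.65) and to Nisch within groups (0.78). Lhfpl3 was nearest to Ptprm over all libraries (0.74) and to Gabrg1, a GABA receptor subunit, within groups (0.73). For Gpr17 the nearest were Adam17 over all libraries (0.71) and Apln within groups (0.81), and the latter was 0.70 without NOD/ShiLtJ females 2 and 4.

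Later stages of the lineage were read from 12 myelin and mature oligodendrocyte genes, all of which passed the F test. All 12 were higher in C57BL/6J (median log2 difference 0.32, beside 20.4% of all genes higher) and 11 of 12 in NOD/ShiLtJ (0.40, 21.4%). All 12 were lower in PWK/PhJ (-0.43, beside 28.8% of all genes lower) and 9 of 12 in CAST/EiJ (-0.30, 28.5%). These are the strains in which Sox10 was also highest and lowest. The match did not extend to A/J, where 6 of the 12 were higher and 1 lower (median 0.13). Sox10 did not pass there (-0.03, adjusted p = 0.725), although the mean sum of the 12, 5010 CPM, exceeded the 4400 CPM of 129S1/SvImJ. In 129S1/SvImJ Sox10 was higher (0.15, adjusted p = 0.0329), with 3 of the 12 higher (median 0.09). NZO/HlLtJ and WSB/EiJ each had 4 of the 12 lower, and Sox10 did not pass in either. Aspa ranged from 17.2 ± 3.39 CPM in NOD/ShiLtJ to 6.93 ± 1.17 in CAST/EiJ (log2 range 1.30), Mobp from 707 ± 117 in A/J to 324 ± 23.7 in CAST/EiJ (1.12), and Opalin from 24.2 ± 6.74 in NOD/ShiLtJ to 11.5 ± 2.29 in WSB/EiJ (1.05). Summed over the 12, libraries ran from 3980 to 5980 CPM in C57BL/6J and from 2880 to 3820 in PWK/PhJ, with no overlap.

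Sox10 followed the mean of these 12 genes with an r of 0.95 over the 8 strain means and 0.80 within groups (0.73 without the pair of farthest libraries). Olig2 gave 0.66 within groups and Olig1 0.61. Pdgfra gave 0.32 and Ptprz1 0.14. Gpr17 gave 0.37 within groups and -0.51 over strain means. The latter includes NOD/ShiLtJ females 1 and 2, the libraries lowest in Gpr17, and was not computed without them. The part of mature oligodendrocytes in the Sox10, Olig1 and Olig2 values was not tested.

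**Figure D4:**
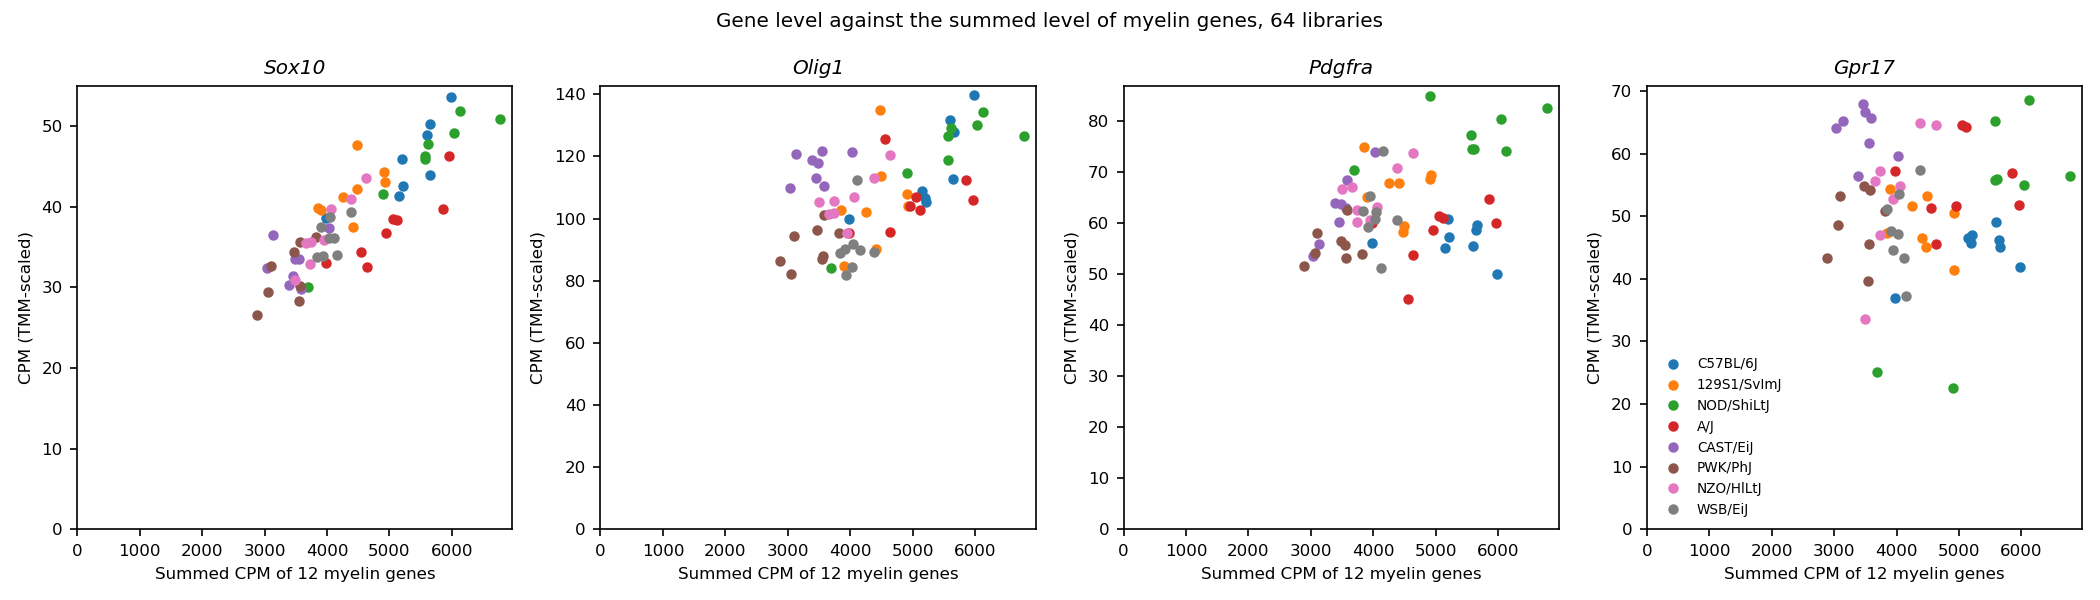
CPM of Sox10, Olig1, Pdgfra and Gpr17 (vertical, linear from 0) against the summed CPM of 12 myelin genes (horizontal), 1 point per library, coloured by strain. Sox10 rises along the myelin sum from PWK/PhJ (2880 to 3820 CPM) to C57BL/6J (3980 to 5980 CPM), whereas CAST/EiJ holds the highest Gpr17 mean at a low myelin sum.

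Other genes of the precursor stage were described by a list of 20, of which 19 passed the F test. In CAST/EiJ 14 of the 20 were higher and 2 lower (median 0.20), where 28.3% and 28.5% of all genes were, beside the 3 higher and 2 lower of the 8 genes above. Of 10 astrocyte markers, 6 were also higher in CAST/EiJ and 2 lower (median 0.22). The part of astrocytes in the 14 higher genes was not tested. Pcdh15, a protocadherin, was at 10.1 ± 1.68 CPM in CAST/EiJ and 5.47 ± 1.45 in WSB/EiJ (log2 range 0.90). Megf11 was at 40.9 ± 5.85 in CAST/EiJ and 22.9 ± 2.34 in A/J (0.83), and Rlbp1, a retinaldehyde-binding protein gene, at 24.0 ± 3.58 in CAST/EiJ and 13.1 ± 0.864 in NZO/HlLtJ (0.88). In NOD/ShiLtJ 7 of the 20 were higher and 1 lower (median 0.05), beside 21.4% and 18.2% of all genes. In PWK/PhJ 5 were higher and 4 lower (0.06), no more than the 28.9% and 28.8% of all genes. C57BL/6J had 1 higher and 9 lower (-0.09), beside 20.4% and 17.6%.

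Newly formed oligodendrocyte genes numbered 13, and 11 passed the F test. In NOD/ShiLtJ 7 were higher (21.4% of all genes), in A/J 6 were higher (19.1%), and in PWK/PhJ 6 were lower (28.8%). Enpp6, expressed in cells that have just begun to differentiate, ranged from 11.3 ± 2.52 CPM in A/J to 5.51 ± 1.12 in NZO/HlLtJ (1.03). Zfp488, a partner of OLIG2, was at 13.4 ± 1.24 in CAST/EiJ and 7.09 ± 0.994 in A/J (0.92). Of 8 genes, most of them for factors that hold back differentiation (Id2, Id4, Hes1, Hes5, Sox5, Sox6, Tcf4 and Lingo1), all passed. NZO/HlLtJ had 5 of them higher (median 0.31, beside 21.8% of all genes higher), led by Id4 (86.8 ± 9.87 CPM there and 48.5 ± 3.29 in 129S1/SvImJ), Hes5 (10.3 ± 1.98 there and 5.61 ± 1.14 in CAST/EiJ) and Hes1 (11.8 ± 0.976 there and 7.19 ± 0.924 in PWK/PhJ). None of the 8 precursor genes was called in that strain. Of 10 astrocyte markers, 6 were also higher in NZO/HlLtJ and 0 lower (median 0.13). The part of astrocytes in the 5 higher genes was not tested.

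Markers of other cells also differed among strains. The F test was passed by all 10 astrocyte, 8 pericyte, 8 meningeal fibroblast, 8 microglia and 8 neuron markers, and by 1 of 8 choroid plexus markers, with median log2 ranges of 0.59, 0.88, 1.02, 0.64, 0.30 and 1.86. In NOD/ShiLtJ, where 6 of the 8 precursor genes were higher, 5 of 8 microglia markers and 3 of 10 astrocyte markers were higher (21.4% of all genes), and the median over the neuron markers was 0.05. In PWK/PhJ, where 4 precursor genes were lower, 5 of 8 neuron markers were higher (median 0.16, beside 28.9% of all genes). Their part in the values of the precursor genes was not tested.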

How the data were processed

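Per the labels' protocols, total hippocampal RNA was extracted with a TRIzol kit and libraries were made with a TruSeq kit. The authors deposited 1 table of whole-number read counts per gene for all samples, without normalization. The table's name gives Ensembl release 105, and the submitters' processing notes name GRCm39 as genome. The aligner, the counting tool, use of strand, and whether reads were aligned to strain-specific genomes are not given in the sources used here, so a strain's own sequence and its level cannot be told apart. Column names equalled the start of a title for 50 samples and lacked 1 digit of it for 14.

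Counts were fitted with edgeR 4.0.16 (R 4.3.3; TMM, filterByExpr with a minimum count of 10 and total of 15, 16 group means, robust quasi-likelihood, 48 residual degrees of freedom), and p-values were adjusted over 17382 genes with a threshold of 0.05 and no fold minimum. Log2 CPM used a prior count of 2. DESeq2 1.42.0 was an alternative. Symbols and exon lengths came from GENCODE annotation of the earlier mouse build. In counts simulated for NOD/ShiLtJ against the other 7, the fit called 39 of 50 genes changed by 0.3 on the log2 scale, 46 of 50 by 0.5, and 6 of 17182 unchanged genes. Far fewer genes changed there than in the data, where 21.4% of all genes were higher and 18.2% lower in NOD/ShiLtJ. These shares therefore do not carry over directly, and no change smaller than 0.3 was simulated. Fits with a library left out kept the dispersion trend of the full fit. No replicate pairs were identical.

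The 8 genes, 12 companion lists and tests were chosen with earlier results of these data known. Genes named were the 8, up to 3 per list with the largest range of strain means among those passing the F test, and the genes most correlated with each of the 8.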

Additional observations from a re-analysis of the deposited data

Results flagged for a closer look

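Within the 128 sets of 4 libraries (8 genes in 16 groups), 8 held a library whose gap to the nearest of the others was wide for the range of its group. Chance flags about 1 in 20 such sets. A pair of libraries accounted for 4 of them. WSB/EiJ female 1 had Ptprz1 at 156 CPM (237 to 241 in the other 3 females) and Olig1 at 112 (89.0 to 90.2), so it was low in one gene and high in the other. PWK/PhJ male 4 had Cspg4 at 20.9 CPM (median 15.8 in the other 3 males) and Olig1 at 96.2 (86.3 to 87.8). A/J held 3 more. Pdgfra was 45.1 CPM in A/J male 2, a library that also correlated less with its group than most (at least 58.7 in the other 3 males). Gpr17 was 57.2 in A/J male 3 (51.3 to 51.8), and Ptprz1 was 234 in A/J female 4 (283 to 288 in the other 3 females). Gpr17 was 65.2 in NOD/ShiLtJ male 4 (55.1 to 56.5 in the other 3 males).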

How the results depend on the processing

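The count of 7 genes called among strains was 7 or 8 with any library left out, and 8 without NOD/ShiLtJ females 1 and 2, a setting chosen after the data were seen. It was 5 among females alone and 6 without the CAST/EiJ females. With a fold minimum of 1 (log2) it was 0, as it was for every single strain. Per strain, the count with 1 library left out ran from 2 to 5 in C57BL/6J (main 3), 0 to 2 in 129S1/SvImJ (1), 3 to 7 in NOD/ShiLtJ (6), 2 to 3 in A/J (3), 4 to 6 in CAST/EiJ (5), 3 to 4 in PWK/PhJ (4) and 1 to 2 in WSB/EiJ (2), and stayed 0 in NZO/HlLtJ. DESeq2 gave 5 in C57BL/6J. A mean count of at least 50 gave 5 in C57BL/6J and 2 in 129S1/SvImJ. Females alone gave 1 in C57BL/6J, 0 in 129S1/SvImJ, 2 in NOD/ShiLtJ and 0 in WSB/EiJ, and males alone 0 in 129S1/SvImJ, 3 in CAST/EiJ and 1 in WSB/EiJ, from fewer libraries. Without the CAST/EiJ females the counts were 0 in 129S1/SvImJ and 2 in CAST/EiJ. Without the 3 libraries that stood apart they were 3 in 129S1/SvImJ and 1 in A/J. Lhfpl3 in CAST/EiJ reversed from -0.183 to 0.017 in males alone and 0.012 without the CAST/EiJ females, and the cause was not tested. Of the 24 called pairs of gene and strain, 24 were kept with DESeq2, its size factors, an additive model of strain and sex, either count filter, and without NOD/ShiLtJ females 1 and 2. Females alone kept 11, males alone 17, the set without CAST/EiJ females 18, and the set without the libraries that stood apart 22. In every fit with a library left out 14 were kept. No paired analysis was possible because replicate numbers were given in deposition order and pair no samples.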

Other observations

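NOD/ShiLtJ females 1 and 2, the libraries lowest in Gpr17, also stood apart in other genes, which were chosen after their values were seen. Ugt8a, an enzyme of myelin lipid synthesis, was at 14.5 and 30.8 CPM in these females and at 54.7 to 69.1 in the other 6 NOD/ShiLtJ libraries. The proliferation gene Top2a was at 0.0441 and 0.249 CPM, the lowest of all 64 libraries, beside 1.02 to 1.65. Pdgfra did not share this pattern, at 70.4 and 84.9 CPM beside 74.2 to 82.5.

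The pair differed from each other in other genes of the lineage. Nkx2-2, a precursor transcription factor, was at 1.46 CPM in female 1, the lowest of all 64 libraries, and at 4.93 in female 2, beside 4.39 to 5.68 in the other 6. Olig2 was at 18.5 and 25.7 CPM, beside 28.0 to 34.1.

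Female 1 had the highest level of all 64 libraries in 6 further genes. Plin4 was at 41.7 CPM (9.32 in female 2, 1.65 to 3.09 in the other 6, and 1.63 to 17.2 in the other strains), Cdkn1a, a cell cycle inhibitor, at 40.7 (9.22, and 4.82 to 6.76) and Hif3a at 15.9 (4.98, and 1.37 to 2.05). The glucocorticoid-responsive genes Sgk1 and Fkbp5 were at 207 and 121 CPM (112 and 75.5 in female 2, at least 55.3 and 55.0 in the other 6). Pdk4 was at 34.3 in female 1 and 10.3 in female 2, beside 10.9 to 11.8. The labels name nothing that sets these females apart, and no cause was tested.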
